A study of Homo sapiens with 8 samples.

Results

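The Toll-like receptors are a family of pattern recognition receptors found in myeloid cells. Of these, 7 (TLR1, TLR2, TLR4, TLR5, TLR6, TLR7 and TLR8) were followed here with the lipopolysaccharide co-receptors CD14 and LY96 and the adaptor MYD88. These 10 genes are a set defined by symbol, and all 10 were among the 26475 gene symbols of the count table. Bulk RNA was sequenced from MOLM-13, an established human acute myeloid leukemia line with a KMT2A-AF9 fusion, labelled wild type in every library. The cells received both inhibitors (the combination), VTP50469 alone, WM1119 alone (written WM119 in the sample labels) or the solvent DMSO, with 2 libraries for each of these 4 groups. VTP50469 is an inhibitor of Menin, the cofactor that KMT2A fusions need at chromatin, and WM1119 targets KAT6A, a histone acetyltransferase. The sources used here give neither dose nor time of treatment, nor whether replicate libraries came from separate cultures, so the p-values measure the spread between these libraries, which may be technical.

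Toll-like receptors bind conserved microbial molecules and signal through adaptors, chiefly MYD88, to kinases of the IRAK family and on to NF-kappaB and IRF transcription factors. TLR1, TLR2, TLR4, TLR5 and TLR6 sense lipids and proteins at the cell surface, while TLR7 and TLR8 sense RNA in endosomes. In the myeloid lineage the receptors and CD14 are typical of monocytes and macrophages, and CD14 is a standard surface marker of the monocyte stage.

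Promoters are shown for TLR2, TLR4 and TLR8, the 3 members of lowest p against DMSO, and for CD14, so that the start regions of genes with unlike responses can be read side by side. Promoters of 7 of the 10 members were taken from the RefSeq table of GRCh38.p14, each with 250 bases before and 50 bases after the gene start. Those of TLR1, TLR7 and LY96 are not reported here. The 300 bases lie at chr9:117704153-117704452 on the plus strand for TLR4, at chrX:12906370-12906669 on the plus strand for TLR8, at chr4:153684030-153684329 on the plus strand for TLR2 and at chr5:140633126-140633425 on the minus strand for CD14. They are given from 5′ to 3′, and capitals mark matches on either strand to the core of the myeloid factor PU.1 (GAGGAA) or to the C/EBP motif (TTGCNNAA).
TLR4: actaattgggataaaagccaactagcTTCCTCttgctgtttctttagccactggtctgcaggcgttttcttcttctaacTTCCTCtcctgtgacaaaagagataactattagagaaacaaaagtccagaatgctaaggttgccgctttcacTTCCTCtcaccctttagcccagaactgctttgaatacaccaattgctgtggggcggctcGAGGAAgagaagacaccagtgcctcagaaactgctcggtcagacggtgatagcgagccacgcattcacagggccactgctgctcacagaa
TLR8: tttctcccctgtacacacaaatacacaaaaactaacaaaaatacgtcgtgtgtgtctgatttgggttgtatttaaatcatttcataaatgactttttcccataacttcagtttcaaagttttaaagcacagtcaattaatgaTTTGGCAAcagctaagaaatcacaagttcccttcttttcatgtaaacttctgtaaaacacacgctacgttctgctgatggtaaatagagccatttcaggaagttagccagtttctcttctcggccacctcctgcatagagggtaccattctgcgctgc
TLR2: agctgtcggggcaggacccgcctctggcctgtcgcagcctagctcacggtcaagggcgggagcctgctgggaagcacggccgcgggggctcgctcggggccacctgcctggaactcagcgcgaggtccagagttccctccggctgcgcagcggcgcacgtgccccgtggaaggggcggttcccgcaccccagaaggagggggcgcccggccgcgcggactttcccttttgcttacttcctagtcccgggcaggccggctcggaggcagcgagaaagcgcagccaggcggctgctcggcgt
CD14: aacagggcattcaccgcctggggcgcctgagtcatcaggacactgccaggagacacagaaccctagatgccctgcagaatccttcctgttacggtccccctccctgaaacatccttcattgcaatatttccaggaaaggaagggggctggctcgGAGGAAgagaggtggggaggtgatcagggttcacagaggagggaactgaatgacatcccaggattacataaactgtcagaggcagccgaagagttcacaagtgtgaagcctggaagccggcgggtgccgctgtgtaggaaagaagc

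The TLR4 promoter held 4 matches to the PU.1 core, which began 224, 171, 99 and 40 bases before the start. At least 1 match was found in 27.9% of 35116 promoters of this length, and 4 or more in 32 of them (0.09%). CD14 held 1 match, as did TLR6 and MYD88, and TLR2, TLR5 and TLR8 held 0. The TLR8 promoter held 1 match to the C/EBP motif, 108 bases before the start, which 10.5% of promoters shared. The matched letters did not overlap, and they describe the sequence only. The TATA box (TATAAA, in 11.5% of promoters) and the NF-kappaB site (in 11.3%) had 0 matches in the member promoters reported here.

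The libraries held between 18092906 and 23634468 counts, and 12401 genes passed the count filter. Combination replicate 2 stood apart: it had counts for 12976 genes, against 14142 to 14546 in the other 7 libraries. Its Pearson correlation with combination replicate 1 on log2(CPM + 1) was 0.975 (CPM is a count per 1000000 counts of the scaled library total), against 0.995 to 0.997 within the other groups, and 1873 genes lay more than 2-fold apart, against 27 to 86. Between the combination replicates, longer genes were lower in replicate 2 (Spearman correlation of the ratio with exonic length -0.469 over 11122 genes, against -0.302, 0.464 and -0.171 within VTP50469, WM1119 and DMSO). All 8 genes of a MOLM-13 marker list had counts in each group. Their summed levels were 2220 and 2970 CPM in the combination and 1220 and 1270 CPM in DMSO. MPO made up most of the sum in the combination. MPO, CD33 and SPI1 were higher in both combination libraries than in both DMSO libraries. MEF2C, FLT3, MEIS1, PBX3 and HOXA9 were lower, such as MEF2C at 221 and 81.7 CPM in the combination and 579 and 569 CPM in DMSO. A T and NK cell list summed to 33.3 and 84.3 CPM in the combination and to 22.0 and 25.2 CPM in DMSO. Of its 6 genes, NKG7 supplied most of the sum, and CD3E and KLRD1 had 0 counts in all 8 libraries. CD3D had 51 and 22 counts in the combination and 83 and 60 in DMSO. CD2 had 19 and 14 counts in the combination and 1 and 0 in DMSO, while CD247 had 2 and 0 in both. B and plasma cell markers (7 genes) summed to 1.65 and 3.16 CPM in the combination and to 2.23 and 2.87 CPM in DMSO. MS4A1 had 0 or 1 count in each library. CD79A had 23 and 43 counts in the combination and 10 and 13 in DMSO, whereas IGLL5 had 0 and 0 against 30 and 22. Markers of plasmacytoid dendritic cells (5 genes) summed to 26.3 and 28.3 CPM in the combination and to 45.2 and 52.0 CPM in DMSO. IL3RA and TCF4 supplied nearly all of this sum, and LILRA4 had 0 or 1 count in each library. IL3RA had 307 and 264 counts in the combination and 495 and 526 in DMSO, and TCF4 had 360 and 161 against 466 and 426. Epithelial, stromal and endothelial markers (7 genes) summed to 2.97 and 4.96 CPM in the combination and to 1.24 and 1.99 CPM in DMSO. EPCAM, VWF, CDH5 and COL1A2 were at 0 throughout. KRT18 had 35 and 44 counts in the combination and 10 and 20 in DMSO. For KRT8 the counts were 17 and 30 against 4 and 12, and for COL1A1 18 and 6 against 9 and 10.

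In cells given the combination, 4 of the 9 members that could be tested were called higher than in DMSO: TLR2, TLR4, TLR8 and TLR1. None was called lower. A call is an adjusted p under 0.05 (Benjamini-Hochberg over all 12401 genes) in the quasi-likelihood test of edgeR, fitted to all 8 libraries. Over all genes, 5.85% were called higher and 3.44% lower. The median log2 change was 1.11 over the 9 members and 0.01 over all genes. DESeq2, the tool named in the study's methods, called 5 of the 9 members, CD14 being added, against 17.1% of all genes in either direction. TLR5 was the member that did not pass the filter, and CD14 passed it only through the combination, since no library of the other groups reached 10 counts. Each library was also left out in turn, and a group then left with a single library is assumed to vary like the other groups, which alone supply the spread. Without combination replicate 1, the single combination library is the one that stood apart, and most genes were called: 3692 higher and 4064 lower than DMSO and 3397 higher and 3825 lower than VTP50469, of 12758 tested. Calls on members in that fit are therefore no result about the members. In bulk RNA, more cells that express a gene and more RNA per cell cannot be told apart.

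**Figure D1:**
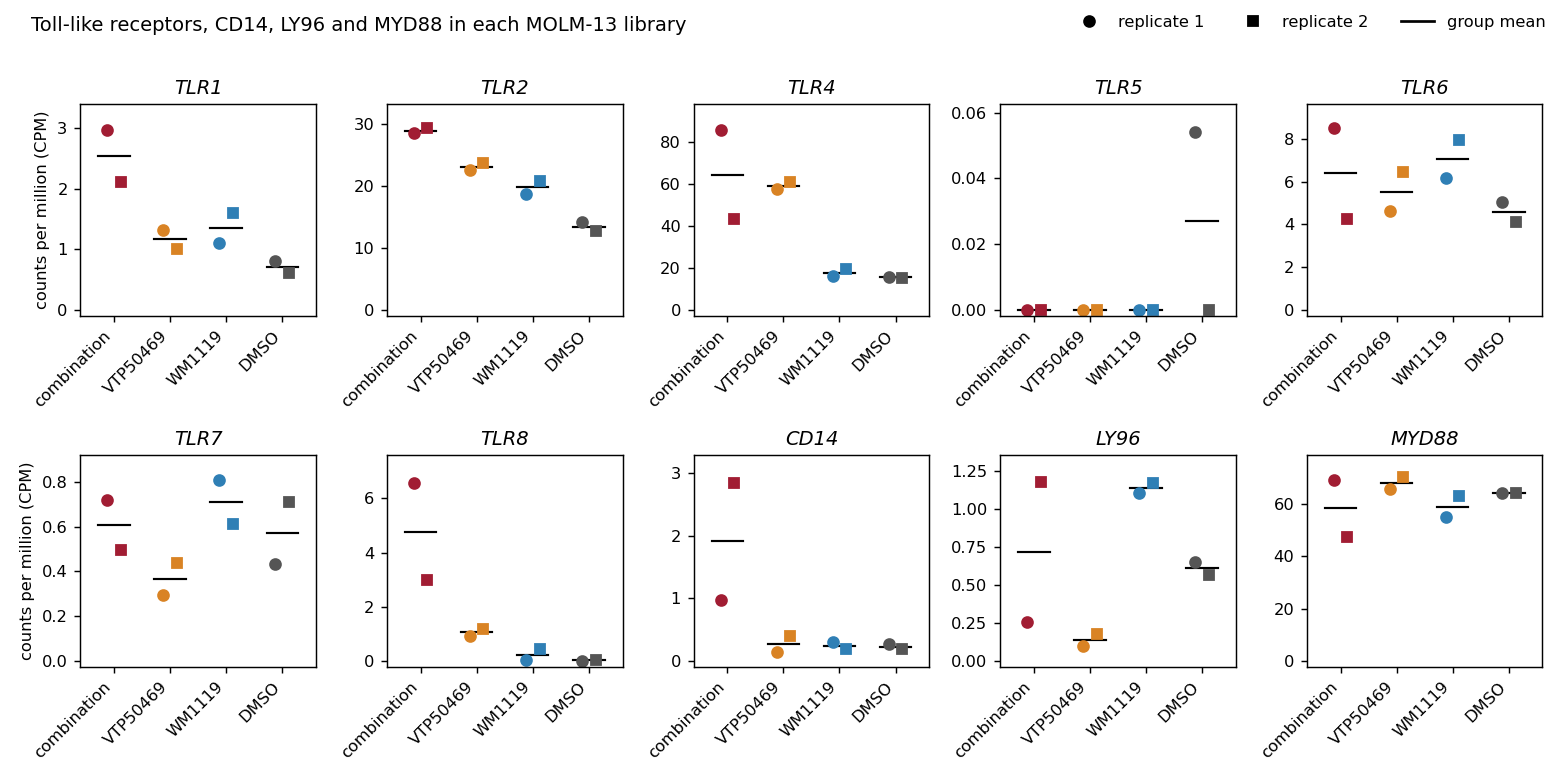
Level of each member in CPM (linear axis from 0, scaled per gene) in the combination, VTP50469, WM1119 and DMSO. Circles are replicate 1, squares replicate 2 and bars the mean of the 2 libraries. TLR2 steps down across the 4 groups, TLR4 is high in both groups with VTP50469, TLR8 and CD14 are highest in the combination, and MYD88 stays between 47.5 and 70.4 CPM.

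TLR4, the receptor for lipopolysaccharide, was high in every library that received VTP50469. It had 2016 and 695 counts (85.5 and 43.1 CPM) in the combination, 1174 and 1387 counts (57.6 and 60.9 CPM) in VTP50469, 376 and 412 counts (16.0 and 19.3 CPM) in WM1119, and 289 and 325 counts (15.6 and 15.4 CPM) in DMSO. Combination and VTP50469 libraries all lay above the WM1119 and DMSO libraries, and the combination libraries lay on both sides of the VTP50469 pair. Against DMSO, TLR4 rose 4.14-fold in the combination (log2 2.05, SE 0.31, edgeR adjusted p 0.0131). Against WM1119 it rose 3.64-fold in the combination (log2 1.87, SE 0.31, edgeR adjusted p 0.044). With VTP50469 alone the log2 difference from DMSO was almost as large, 1.93 (SE 0.31), but it was not called by edgeR (adjusted p 0.104), while DESeq2 called it (adjusted p 2.4e-06). WM1119 alone gave a log2 difference of 0.19 (SE 0.31, edgeR adjusted p 1).

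Adding WM1119 to VTP50469 left TLR4 at a log2 difference of 0.12 (SE 0.30, edgeR adjusted p 0.808). The sign of that difference turned with the combination library read: it was log2 -0.47 without combination replicate 1 (combination replicate 2 alone, in the fit that called most genes, edgeR adjusted p 0.0222) and 0.54 without combination replicate 2, where it was not called. The call against DMSO was lost without DMSO replicate 1 or DMSO replicate 2 (adjusted p 0.143 and 0.138). Its log2 change stayed between 1.46 and 2.47 whichever library was left out. The call against WM1119 held without either combination library and was lost when any 1 of the other 6 libraries was left out (adjusted p 0.133 to 0.347). In the annotation, 678 of the 13277 exonic bases of TLR4 are shared with an overlapping gene on the same strand, so some of its counts may be ambiguous.

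TLR2, the receptor for bacterial lipoproteins, had close replicates in every group. Its counts were 675 and 474 (28.6 and 29.4 CPM) in the combination, 460 and 542 (22.6 and 23.8 CPM) in VTP50469, 442 and 445 (18.8 and 20.9 CPM) in WM1119, and 262 and 268 (14.2 and 12.7 CPM) in DMSO. The groups fell in that order with no overlap between them. Relative to DMSO, TLR2 rose 2.16-fold in the combination (log2 1.11, SE 0.14, edgeR adjusted p 0.00773). The single inhibitors gave smaller log2 differences from DMSO, 0.79 with VTP50469 (SE 0.14, edgeR adjusted p 0.133, DESeq2 adjusted p 0.0041) and 0.56 with WM1119 (SE 0.14, edgeR adjusted p 0.6, DESeq2 adjusted p 0.269). The combination was not called apart from either inhibitor by edgeR: it differed from VTP50469 by log2 0.32 (SE 0.14, edgeR adjusted p 0.288) and from WM1119 by log2 0.55 (SE 0.14, edgeR adjusted p 0.131), of which DESeq2 called the second (adjusted p 0.0467). The call against DMSO was lost without DMSO replicate 1 or DMSO replicate 2 (adjusted p 0.102 and 0.111), with a log2 change of 1.02 to 1.18 over the 8 left-out libraries.

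TLR1 and TLR6 each pair with TLR2, TLR1 for triacylated and TLR6 for diacylated lipopeptides. TLR1 had 70 and 34 counts (2.97 and 2.11 CPM) in the combination, 27 and 23 in VTP50469, 26 and 34 in WM1119, and 15 and 13 (0.811 and 0.616 CPM) in DMSO. Every treated library lay above both DMSO libraries in CPM, and both combination libraries lay above all others. TLR1 rose 3.56-fold in the combination against DMSO (log2 1.83, SE 0.41, edgeR adjusted p 0.0421). This call was the least stable of the 4: it was lost when any VTP50469, WM1119 or DMSO library was left out (adjusted p 0.0904 to 0.278) and when only library size was used for scaling (adjusted p 0.064). TLR6 had 201 and 69 counts in the combination, 94 and 147 in VTP50469, 145 and 170 in WM1119, and 93 and 87 in DMSO. In CPM, combination replicate 1 was the highest TLR6 library and combination replicate 2 lay below all but DMSO replicate 2, and the log2 difference from DMSO of 0.49 (SE 0.37, edgeR adjusted p 0.369) was not called. The TLR1 and TLR6 genes overlap on the same strand and share 57 exonic bases.

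TLR8, which senses single-stranded RNA inside endosomes, was almost absent from the DMSO libraries. It had 155 and 48 counts (6.57 and 2.97 CPM) in the combination, 19 and 27 (0.932 and 1.19 CPM) in VTP50469, 1 and 9 in WM1119, and 0 and 1 in DMSO. The lowest combination library exceeded the highest VTP50469 library, and both VTP50469 libraries exceeded all WM1119 and DMSO libraries. Summed over the 2 libraries, the ratio to DMSO was 202 in the combination (95% counting interval 35.9 to 8030), 42.2 in VTP50469 (7.20 to 1700) and 8.83 in WM1119 (1.26 to 383). These exact intervals cover counting error only and are wide because DMSO holds a single count. The fitted log2 change against DMSO was 7.27 in the combination (SE 1.15, edgeR adjusted p 0.0146), a value that depends on the prior count and was 6.49 without DMSO replicate 1 and 9.64 without DMSO replicate 2. It was called without any combination, VTP50469 or WM1119 library and was lost without DMSO replicate 1 or DMSO replicate 2 (adjusted p 0.153 and 0.126).

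With VTP50469 alone TLR8 was not called by edgeR in the fit of all 8 libraries (log2 5.10, SE 1.25, adjusted p 0.28) or by DESeq2 (adjusted p 0.057). A fit of only VTP50469 and DMSO did call it (edgeR adjusted p 0.00333), among 715 genes called higher and 617 lower of 11959. The combination against VTP50469 gave a log2 difference of 2.17 (SE 0.72, edgeR adjusted p 0.213, DESeq2 adjusted p 0.0941). Against WM1119 the log2 difference was 4.37 (SE 0.85), called by DESeq2 (adjusted p 7.79e-05) and not by edgeR (adjusted p 0.071). Its antisense neighbour TLR8-AS1 shares 0 exonic bases with it. TLR7, the neighbouring RNA receptor on the X chromosome, had few counts in every group: 17 and 8 in the combination, 6 and 10 in VTP50469, 19 and 13 in WM1119, and 8 and 15 in DMSO. The combination and DMSO libraries of TLR7 overlapped, and its log2 difference between combination and DMSO was 0.10 (SE 0.53, edgeR adjusted p 0.908).

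CD14, the anchored co-receptor that hands lipopolysaccharide to the TLR4 complex, was near the detection limit outside the combination. It had 23 and 46 counts (0.975 and 2.85 CPM) in the combination, 3 and 9 in VTP50469, 7 and 4 in WM1119, and 5 and 4 in DMSO. Both combination libraries lay above the other 6, which overlapped one another. The summed ratio of combination to DMSO was 7.64 (95% counting interval 3.80 to 17.4), whereas it was 1.22 (0.473 to 3.28) for VTP50469 and 1.08 (0.407 to 2.95) for WM1119. These intervals cover counting error only, not the spread between the combination libraries. The log2 difference of 3.01 in the combination (SE 0.77) was not called by edgeR (adjusted p 0.0576) and was called by DESeq2 (adjusted p 0.0151). CD14 passed the count filter only through the combination, the group where it was high, so its edgeR tests lend no independent support to that difference. Its log2 difference was 3.59 without combination replicate 1, in the fit that called most genes (edgeR adjusted p 0.00248), and 2.08 without combination replicate 2 (edgeR adjusted p 0.105). Over the 8 left-out libraries its adjusted p was 0.00248 to 0.32.

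For CD14 the combination differed from the single inhibitors by log2 2.75 against VTP50469 (SE 0.75, edgeR adjusted p 0.159, DESeq2 adjusted p 0.0546) and log2 2.92 against WM1119 (SE 0.75, edgeR adjusted p 0.132, DESeq2 adjusted p 0.0375). The change in the combination differed from the added changes of the single inhibitors by log2 2.66 (SE 1.17, edgeR unadjusted p 0.0571, adjusted p 0.938), which was not called. LY96, also known as MD-2, is the secreted partner that binds lipid A within the TLR4 complex. It had 6 and 19 counts in the combination, 2 and 4 in VTP50469, 26 and 25 in WM1119, and 12 and 12 in DMSO. The summed ratio to DMSO was 1.04 in the combination (95% counting interval 0.569 to 1.90), 0.229 in VTP50469 (0.0766 to 0.576) and 1.88 in WM1119 (1.13 to 3.19), intervals that cover counting error only. The VTP50469 libraries lay below all others and the WM1119 libraries above DMSO in CPM, while the combination libraries were far apart. LY96 was called in none of the comparisons: its log2 difference from DMSO was 0.18 in the combination (SE 0.73, edgeR adjusted p 0.875), -2.09 in VTP50469 (SE 0.86, edgeR adjusted p 0.715) and 0.90 in WM1119 (SE 0.70, edgeR adjusted p 1).

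TLR5, the flagellin receptor, had 1 count in DMSO replicate 1 and 0 counts in the other 7 libraries. A count of 0 over the combination libraries allows a level of up to 0.0755 CPM (3 counts). MYD88, the adaptor shared by nearly all Toll-like receptors, had 1638 and 766 counts (69.4 and 47.5 CPM) in the combination, 1341 and 1603 (65.8 and 70.4 CPM) in VTP50469, 1291 and 1349 (55.0 and 63.3 CPM) in WM1119, and 1189 and 1355 (64.3 and 64.3 CPM) in DMSO. The combination libraries lay on both sides of DMSO, and the log2 difference of -0.14 (SE 0.20, edgeR adjusted p 0.642) was not called. It was -0.45 without combination replicate 1, in the fit that called most genes (edgeR adjusted p 0.016), and 0.13 without combination replicate 2 (edgeR adjusted p 0.541).

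**Figure D2:**
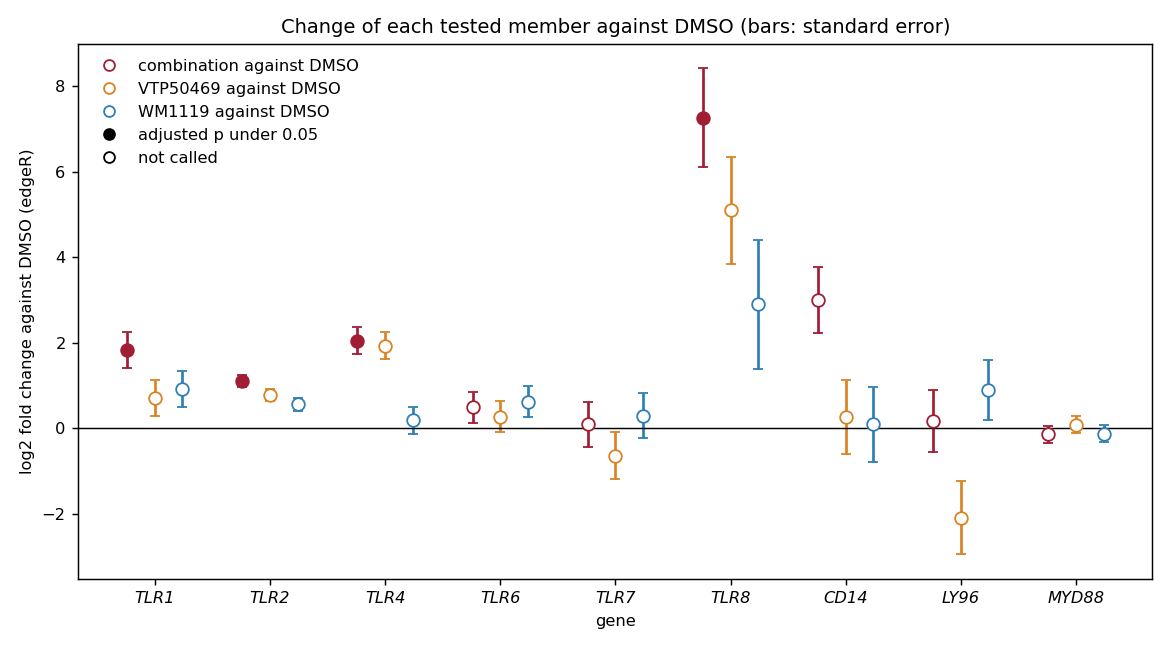
Fitted log2 change against DMSO (vertical axis) of the 9 tested members in the combination, VTP50469 and WM1119. Points are edgeR estimates, bars 1 standard error derived from the F statistic, and filled points have an adjusted p under 0.05. The filled points are TLR1, TLR2, TLR4 and TLR8 in the combination, and the TLR8 estimates rest on a single count in DMSO.

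For single inhibitors the calls were few over all genes. With VTP50469 alone 0 of 9 members were called by edgeR in the fit of all 8 libraries, against 0.169% of all genes. In that fit an unadjusted p under 0.05 was reached by 4 members (TLR2, TLR4 and TLR8 higher, LY96 lower) and by 837 of the 12401 genes. DESeq2 called 2 of 9 (TLR2 and TLR4), against 1.58% of all genes. When only VTP50469 and DMSO were fitted, edgeR called TLR2, TLR4 and TLR8 of 7 members tested, with 715 genes higher and 617 lower of 11959. With WM1119 alone 0 of 9 members were called by edgeR (0% of all genes) and 1 had an unadjusted p under 0.05, as did 612 of all genes. DESeq2 called 0 of 9 members there, against 0.651% of all genes. With combination replicate 1 left out edgeR called 2 members for VTP50469, together with 252 genes higher and 164 lower of 12758, and with combination replicate 2 left out it called 3, together with 257 higher and 162 lower of 12694.

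Between the combination and VTP50469, edgeR called 0 of 9 members (0.395% of all genes) and DESeq2 also 0 of 9 (5.07% of all genes), while 4 had an unadjusted p under 0.05, as did 2225 of the 12401 genes. Without combination replicate 1 edgeR called 4 of 9 members, a smaller share than that of all genes in that fit. Between the combination and WM1119, edgeR called 1 of 9 members, TLR4 (1.43% of all genes), and DESeq2 called 4 of 9, adding TLR2, TLR8 and CD14 (5.32% of all genes). The interaction compares the change in the combination with the added log2 changes of the single inhibitors. It was called for 0 of 9 members by edgeR (0% of all genes), with 0 at an unadjusted p under 0.05, and for 0 members by DESeq2 (0.0305% of all genes). Without combination replicate 1 it was called for 2 of 9 members, CD14 and TLR4, together with 1586 genes above and 2352 below 0 of 12758, a smaller share of the members than of all genes.

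Combination replicate 2 was lower than replicate 1 in CPM for 6 of the 9 tested members (TLR1, TLR4, TLR6, TLR7, TLR8 and MYD88) and higher for TLR2, CD14 and LY96. The log2 ratio of replicate 2 to replicate 1 was 2.21 for LY96 and 1.55 for CD14, the shortest members with 559 and 1647 exonic bases. It was -0.99 for TLR4, the longest, with 13277 exonic bases, and -1.14 for TLR8, with 4353. Over all genes the median log2 ratio was -0.64 in the longest of 10 length bins and 0.75 in the shortest bin. In DMSO those medians were -0.05 in the longest bin and 0.05 in the shortest. In VTP50469 they were -0.09 in the longest and 0.16 in the shortest. WM1119 had the opposite direction, with 0.27 in the longest and -0.28 in the shortest. The part of this length trend in the members' values was not tested.

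**Figure D3:**
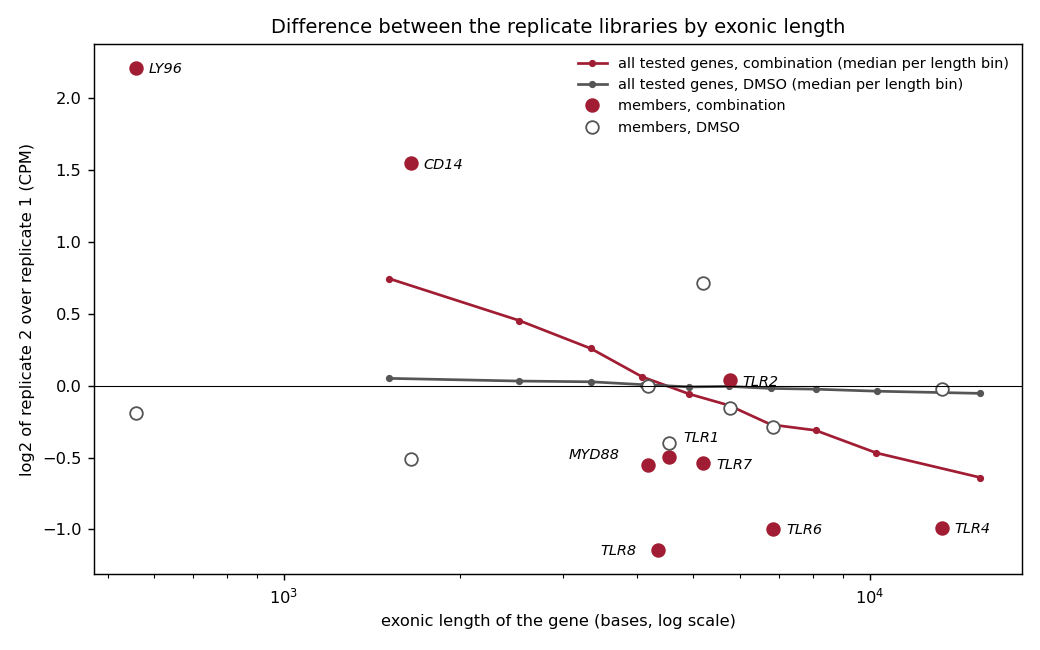
Log2 ratio of replicate 2 to replicate 1 in CPM against exonic length in bases (log axis) for members in the combination (filled) and in DMSO (open), with the medians of all tested genes in 10 length bins as lines. In the combination the line falls with length, and LY96 and CD14 lie high at the short end; the DMSO line is nearly flat.

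Per kilobase of exon, MYD88 had the highest level of the 10 genes in DMSO, at 15.3 ± 0.0124 CPM per kb (SD, n = 2). TLR2 followed at 2.33 ± 0.180, then TLR4 at 1.17 ± 0.0119 and LY96 at 1.09 ± 0.101, which did not differ beyond their spread. TLR6 had 0.668 ± 0.0935, TLR1 0.157 ± 0.0304, CD14 0.140 ± 0.0347 and TLR7 0.110 ± 0.0379 CPM per kb, the last 3 within their spread. TLR8 and TLR5 were at the bottom, with 0.00545 and 0.00350 CPM per kb, each from a single count. In the combination MYD88 was at 13.9 ± 3.71 CPM per kb, TLR2 at 5.02 ± 0.0926 and TLR4 at 4.84 ± 2.26, this pair within their spread. LY96 (1.28 ± 1.17), CD14 (1.16 ± 0.805), TLR8 (1.10 ± 0.584), TLR6 (0.934 ± 0.438) and TLR1 (0.559 ± 0.134) followed with overlapping spreads, and TLR7 was at 0.117 ± 0.0306. The order of TLR2 and TLR4 turns on the division by exonic length (5775 and 13277 bases). In CPM the mean of TLR4 was above that of TLR2, at 15.5 and 13.4 in DMSO and 64.3 and 29.0 in the combination.

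Of the receptors outside the 10 genes, TLR9, the sensor of unmethylated CpG DNA, was read in every library. It had 766 and 726 counts in the combination, 788 and 872 in VTP50469, 647 and 572 in WM1119, and 395 and 494 in DMSO. All treated libraries exceeded both DMSO libraries in CPM, and TLR9 rose in the combination (log2 0.79, SE 0.18, edgeR adjusted p 0.044). It was not called with the replicate block or when only the combination and DMSO were fitted. The call was also lost when any VTP50469, WM1119 or DMSO library was left out. Its log2 change was 0.55 to 0.99 over the left-out libraries. With VTP50469 alone the log2 difference from DMSO was 0.78 (edgeR adjusted p 0.241, DESeq2 adjusted p 0.0373). Between the combination and VTP50469 it was 0.0085. TLR3 and TLR10 had 0 or 1 count per library.

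Pathway genes downstream of the receptors were counted in lists set by role, against the same 5.85% called higher and 3.44% called lower. Among co-receptors, chaperones and trafficking factors 1 of 10 tested genes was called higher and 0 lower in the combination, with a median log2 change of 0.66. The called gene was HSP90B1, the chaperone that folds Toll-like receptors, at 889 and 871 CPM in the combination and 564 and 574 CPM in DMSO (log2 0.63, SE 0.12, edgeR adjusted p 0.0243). CNPY4 and CNPY3, of which CNPY3 is a partner of HSP90B1 in that folding, had log2 differences of 0.81 and 1.22 that were not called (edgeR adjusted p 0.0561 and 0.0618).

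Among adaptors and proximal kinases, 0 of 14 tested genes were called higher and 1 lower, with a median of -0.09. The called gene was TRAF3, a ubiquitin ligase of the interferon branch that also restrains non-canonical NF-kappaB signalling. It stood at 22.7 and 16.9 CPM in the combination and at 42.7 and 44.2 CPM in DMSO, and fell by 1.13 on the log2 scale (SE 0.17, edgeR adjusted p 0.0131). The kinases SYK and IRAK2 differed by log2 0.40 and 1.04 without a call (edgeR adjusted p 0.118 and 0.201).

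In the NF-kappaB and IRF arms 4 of 17 tested genes were called higher and 0 lower, with a median of 0.04. IKBKE, an IKK-related kinase that phosphorylates IRF factors, was at 42.6 and 52.1 CPM in the combination and 17.3 and 19.7 CPM in DMSO (log2 1.35, SE 0.17, edgeR adjusted p 0.00705). MAPK14, the p38 alpha kinase, rose by log2 1.07 (edgeR adjusted p 0.0114) and IRF5, a transcription factor activated downstream of MYD88, by log2 0.80 (edgeR adjusted p 0.0277). The other called gene was NFKB2, the precursor of the NF-kappaB subunit p52 (log2 1.23, edgeR adjusted p 0.0461), named here after its value was seen. NFKB2 was at 7.63 and 13.2 CPM in the combination, with replicate 2 the higher, and at 4.60 and 4.27 CPM in DMSO.

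Negative regulators had 2 of 14 tested genes called higher and 0 lower, with a median of 0.17. ZC3H12A, a ribonuclease that degrades cytokine mRNA, rose by log2 1.31 (edgeR adjusted p 0.0308), and NFKBIA, the inhibitor IkB alpha, by log2 0.86 (edgeR adjusted p 0.0486). ZC3H12A was at 14.0 and 23.8 CPM in the combination and 8.28 and 6.88 CPM in DMSO. For NFKBIA the levels were 26.1 and 37.4 against 19.1 and 15.9 CPM. Combination replicate 2 was the higher library for both genes, and neither was called with the replicate block. NFKBIE, the inhibitor IkB epsilon, had a log2 difference of 0.79 without a call (edgeR adjusted p 0.0544).

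Of 18 cytokines, chemokines and other induced genes, 7 could be tested, and 3 of them were called higher and 0 lower, with a median of 1.09. CXCL8, the neutrophil chemoattractant interleukin 8, had 646 and 713 counts in the combination, 144 and 289 in VTP50469, 33 and 32 in WM1119, and 13 and 35 in DMSO. Both combination libraries exceeded every other library, and CXCL8 rose by log2 4.89 against DMSO (SE 0.50, edgeR adjusted p 0.00363). IL23A, a subunit of interleukin 23, rose by log2 2.36 (edgeR adjusted p 0.0401) and ICAM1, an adhesion molecule, by log2 1.41 (edgeR adjusted p 0.0477). IL23A had few counts, 45 and 32 in the combination and 4 and 11 in DMSO. The calls on IL23A and ICAM1 were lost when any VTP50469, WM1119 or DMSO library was left out. Their log2 changes were 1.88 to 3.12 and 1.30 to 1.52 over the left-out libraries. Against DMSO, edgeR called 0 of the 63 tested list genes with VTP50469 (10 at an unadjusted p under 0.05, DESeq2 3 calls) and 0 with WM1119 (8 at an unadjusted p under 0.05, DESeq2 0 calls).

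Over all lists, 12 of the 63 tested genes were called in the combination against DMSO (11 higher and 1 lower). This number was 1 without DMSO replicate 1 and also without DMSO replicate 2, and 4 when any VTP50469 or WM1119 library was left out. It was 40 without combination replicate 1, where 3692 genes were called higher and 4064 lower of 12758, and 19 without combination replicate 2. CXCL8 was called whichever of the 8 libraries was left out (highest edgeR adjusted p 0.0483).

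**Figure D4:**
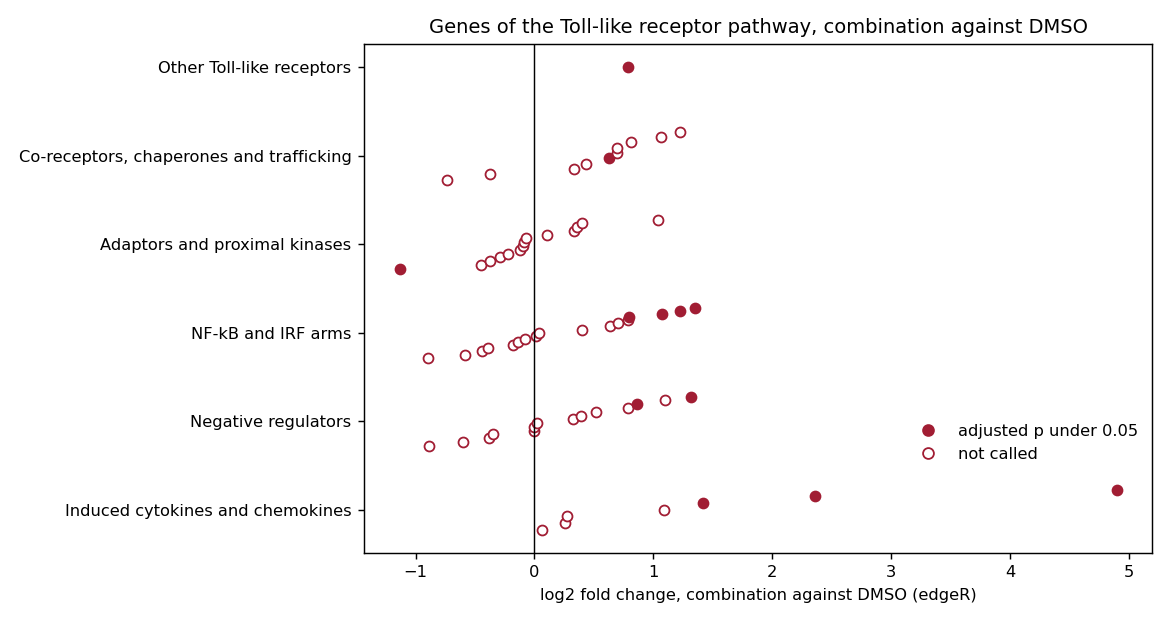
Log2 change between combination and DMSO (horizontal axis, edgeR) for each tested gene of the pathway lists, 1 row of points per list, ordered by value within a list. Filled points have an adjusted p under 0.05. The cytokine list holds the point farthest right (CXCL8, 4.89), and the only filled point left of 0 is TRAF3.

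For TLR2, TLR4 and TLR8, the genes with the most similar pattern over the 8 libraries were found by Pearson correlation of log2(CPM + 1). For TLR2 these were PPP1R3E, a glycogen-targeting phosphatase subunit (r = 0.990), APBB1IP, an adaptor in integrin activation (0.986), and TCF19 (0.983). For TLR4 they were TMEM170B (0.997), the palmitoyltransferase ZDHHC2 (0.988) and the ubiquitin-conjugating enzyme UBE2D1 (0.986). TLR8 was closest to ATP6V1B2, a subunit of the vacuolar proton pump (0.993), the phosphatase PTPN12 (0.986) and the transporter SLCO3A1 (0.978). The points of each correlation share 4 treatments and the same library depths, so these values describe the pattern only. TMEM170B, the closest to TLR4, had 2650 and 1074 counts in the combination, 1552 and 1818 in VTP50469, 727 and 788 in WM1119, and 526 and 625 in DMSO. Like TLR4, it was high in all 4 libraries that received VTP50469 and was lower in combination replicate 2 than in replicate 1.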

How the data were processed

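RNA of 8 MOLM-13 libraries was analysed from the table the authors deposited, in which each gene symbol has expected counts without normalization. The authors mapped paired reads to hg38 with STAR 2.5.1b. For the counting tool, its annotation and its strand setting nothing is given in the sources used here, and the labels and the paper name different media, RNA kits and library kits. Between 11.4% and 16.6% of a library's nonzero values were fractional and were rounded. The test was run in edgeR 4.0.16 under R 4.3.3 (scaling by TMM, filterByExpr with a minimum count of 10, quasi-likelihood F test, 1 fit of 4 groups without a replicate block, common dispersion 0.0457, 4 residual degrees of freedom). The threshold for a call was 0.05 after Benjamini-Hochberg adjustment. CPM uses TMM-scaled totals. The SE given with an edgeR log2 change was derived as its absolute value divided by the square root of the F statistic. DESeq2 1.42.0, RLE factors, library size only, other count filters, a replicate block, a fit of only the groups compared and leaving out each library were alternatives; applying them to the pathway lists was chosen after seeing the data. The scripts were tested on simulated data. Exonic lengths (union of exons) come from GENCODE release 44 and cover 87.5% of the table's genes. Replicate libraries differed by more than sampling noise in each group. Floors are 3 counts over the 2 libraries of a group.

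The members, pathway lists and marker lists were chosen with earlier results of these data known. The result of 1 marker list is not reported here. Named were each member, at most 3 genes of lowest p per pathway list (combination against DMSO), NFKB2 in addition after its value was seen, and the 3 genes most correlated with each of the 3 members of lowest p. Sequences come from RefSeq (GRCh38.p14), and motifs were searched on both strands.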

Additional observations from a re-analysis of the deposited data

How the results depend on the processing

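Between the combination and DMSO the 4 member calls became 0 when only the groups compared were fitted (edgeR, 0 of all genes called, 1964 genes and 5 members at an unadjusted p under 0.05, DESeq2 on all libraries 5 members) and 0 to 6 over the left-out libraries (6 without combination replicate 1, where most genes were called). With VTP50469 the 0 calls became 2 with DESeq2, 1 with no count filter (43 genes higher and 7 lower of 16403), 3 when only the groups compared were fitted (where 715 genes were called higher and 617 lower of 11959), and 0 to 3 over the left-out libraries. Between the combination and WM1119 the 1 call became 4 with DESeq2, 2 with no count filter, 0 with library size only, 0 when only the groups compared were fitted, and 0 to 4 over the left-out libraries. For the combination against VTP50469 the left-out libraries gave 0 to 4 calls, and for the interaction 0 to 2. Of the members' values given, direction changed under leave-one-out fits alone: against DMSO the combination's log2 change was -0.11 to 0.91 for TLR6, -0.23 to 0.49 for TLR7, -1.22 to 0.93 for LY96 and -0.45 to 0.13 for MYD88, and against VTP50469 it was -0.47 to 0.54 for TLR4 and -0.53 to 0.04 for MYD88 (0.0374 without combination replicate 2). The interaction of TLR4 was -0.66 to 0.36. The cause was not tested. With the replicate block, 3 members were called in the combination against DMSO (TLR2, TLR4 and TLR8; TLR1 had an edgeR adjusted p of 0.0845) and 0 against WM1119, and the pathway lists held 4 calls in place of 12; with DESeq2 they held 21. Same-numbered libraries did not deviate together in every pair of groups (correlations -0.661 to 0.35). This check cannot tell whether same-numbered libraries are paired, since the differences between replicates also follow exonic length. The main fit treated them as unpaired. Over all genes, the combination against DMSO had 726 calls higher and 426 lower in edgeR, 1289 and 966 in DESeq2, 347 and 181 with the replicate block, and 574 and 350 with library size only, which moved the median of all genes to -0.10. Depth limits TLR1, TLR5, TLR7, TLR8, CD14 and LY96, which had under 30 counts in each DMSO library.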
